A study of Mus musculus with 12 samples.

Results

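Gene expression in the earliest and the latest of 4 sorted stages of mouse basophil development was compared by bulk RNA sequencing. The early cells were basophil progenitors (BaPs), and the late cells were mature basophils of the spleen. They are the ends of a series of 12 libraries, in which bone marrow (BM) pre-basophils and BM mature basophils are the groups between them. All 3 BaP and all 3 spleen libraries were used, that is 6 of the 12, and 15083 of the 32227 genes in the count table passed the filter on low counts. Every mouse was a wild type of the C57BL/6J strain, the genotype that the 4 groups share. The animals' age is not in the labels, no treatment is named, and each library was made from cells pooled over several mice, and the spread between replicates is therefore that between pools. In the study's flow cytometry, basophils of marrow and spleen were gated as cKit-, CD200R3+ and CD49b+ cells. BaPs were sorted from bone marrow as lineage-negative, cKit-, CD200R3+, CLEC12A-high and CD34+ cells, and spleen mature basophils as CD34-, CLEC12A-low and CD9-high cells. Stage and tissue therefore change together between these groups and cannot be told apart in this contrast.

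Basophils, a small population of granulocytes, bind IgE through the high-affinity receptor FcεRI and release histamine, proteases, lipid mediators and type 2 cytokines. They are made in the bone marrow, where progenitors divide and fill their granules, and leave it as non-dividing cells with a short life. Serine proteases such as mMCP-8 (Mcpt8) and mMCP-11 (Prss34) are basophil products of the mouse, and CLEC12A is an inhibitory C-type lectin receptor of myeloid cells.

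Total counts of the 6 libraries ranged from 3773638 to 8151030. Levels are given as counts per 1000000 (CPM) after TMM scaling of the library sizes, in the order of replicates 1, 2 and 3, and a positive log2 fold change means a higher level in BaPs. Where values stand in parentheses after a gene, they are its log2 fold change with the standard error (SE) over all libraries and then the log2 fold change without BaP replicate 3. Differences were called at a Benjamini-Hochberg adjusted p under 0.05 in edgeR's quasi-likelihood test with 3 libraries per group. The fit without BaP replicate 3 kept only replicates 1 and 2 of that group, with the spread estimated over all 4 groups together. Genes described as higher or lower passed the test in both fits unless stated. Genes that identify basophils were present in every one of the 6 libraries. Mcpt8 was at 11980, 10618 and 5008 CPM in BaPs and at 553, 757 and 648 CPM in the spleen, and Fcer1a, the IgE-binding chain of FcεRI, was at 1423, 1291 and 537 and 548, 562 and 462 CPM.

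BaP replicate 3 stood apart from replicates 1 and 2, and gene lists are therefore given with and without it. The root-mean-square log2 distance was 0.488 between BaP replicates 1 and 2, 0.879 to 0.918 between either of them and replicate 3, and 0.455 to 0.480 among the spleen libraries. Replicate 3 lay 1.09 to 1.17 from the spleen libraries, nearer than the 1.25 to 1.40 of the other BaP libraries. It also had the most genes with a read (26743) and the largest mitochondrial share, 3.53% against 1.0% to 1.82% in the other 5 libraries.

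Genes of other blood cells were part of that separation. The summed level of 13 NK cell and innate lymphoid cell genes was 10.03, 9.67 and 1145 CPM in BaP replicates 1, 2 and 3, against 64.0 to 79.5 CPM in the spleen, and 11 of the 13 were highest in BaP replicate 3. T cell genes were summed to 414, 367 and 1324.5 CPM against 245 to 289 CPM, and 20 of 21 were highest in that library. Most of the sum in BaP replicates 1 and 2 came from Thy1 (221 and 184 CPM) and Lat (163 and 159 CPM). Erythroid and platelet genes reached 503, 501 and 3111 CPM against 1142 to 1272 CPM. Itga2b made up most of this sum in BaP replicates 1 and 2, at 412 and 402 CPM, and was at 531 to 888 CPM in the spleen. Monocyte, macrophage and dendritic cell genes reached 90.5, 108 and 398 CPM against 72.8 to 83.0 CPM. The defining NK genes Ncr1 and Eomes were at or near 0 in BaP replicates 1 and 2, with 0, 0.471 and 94.3 CPM and 0.478, 0.236 and 61.0 CPM over the 3 BaP libraries. In bulk samples, fewer cells of a type and less RNA per cell cannot be told apart.

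**Figure D1:**
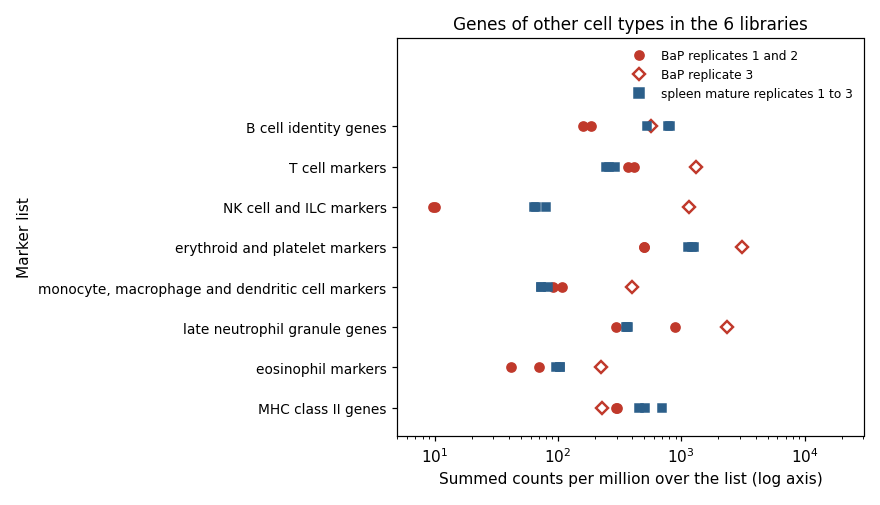
Summed CPM of marker lists of other cell types (log axis) in the 3 BaP and 3 spleen mature libraries; each point is 1 library, filled circles are BaP replicates 1 and 2, open diamonds BaP replicate 3 and squares the spleen. BaP replicate 3 was the highest of the 6 for T cell, NK cell, erythroid, myeloid, late neutrophil and eosinophil lists, and fell within the spleen range only for B cell genes (572 CPM against 525 to 810 CPM).

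BaPs and spleen mature basophils differed in most of the genes tested. In all, 8213 of 15083 genes were called (54.5%), 4496 higher in BaPs (29.8%) and 3717 lower (24.6%). A difference of at least 2-fold was called for 4743 genes (31.4%), of which 2828 were higher in BaPs (18.7%) and 1915 lower (12.7%). Without BaP replicate 3, 9065 of 14723 genes were called (61.6%), 4712 higher (32%) and 4353 lower (29.6%). Of the genes tested in both fits, 7619 were called with the same sign in both and 11 with opposite signs. The 11 genes, named here after their values were seen, were Eomes, Klra4, Klrb1c, Klrc1, Klrd1, Klre1, Klrk1, Sh2d2a and Tcf7 of NK and T cells, and Ly6c1 and Ly6c2. All 11 were higher in BaPs with replicate 3 in the group and lower without it. With so many genes called, a list was read against these shares and against the median log2 fold change of all tested genes, 0.030. With library size as the only scaling, that median moved to 0.33 and 73.7% of the called genes were higher in BaPs, against 54.7% here. It moved to 0.15 with a rebuilt form of DEGES, a scaling scheme of the TCC package named by the study.

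For the genes of the marker proteins the BaP and spleen libraries did not overlap, as for 9030 of 15083 tested genes (59.9%). Prss34, at chr17:25298394-25300165 of GRCm38, was at 48653, 45396 and 17009 CPM in BaPs and at 883, 909 and 969.8 CPM in the spleen, a log2 fold change of 5.33 ± 0.35 (SE, adjusted p = 6.56e-08), and 5.69 without BaP replicate 3. It took 5.26%, 5.10% and 2.19% of all counts in BaPs and 0.0864% to 0.0896% in the spleen. Mki67, which encodes the proliferation antigen Ki-67, was at 804, 638 and 431 CPM against 29.3, 18.3 and 22.6 CPM, a log2 fold change of 4.74 ± 0.30 (SE, adjusted p = 4.92e-08), and 4.96 without BaP replicate 3. In each of these genes BaP replicate 3 was the lowest of the BaP libraries and still far above every spleen library. The genes of the proteins used for sorting are given without a test. Levels of Clec12a, Cd34 and Cd9 went in the direction of the gates. The cKit- gate is shared by basophils of both tissues and gives no direction, and Kit was at higher levels in BaPs. Clec12a was at 322, 327 and 129 CPM in BaPs and 12.3, 15.2 and 10.9 CPM in the spleen, and Cd34, a sialomucin of progenitors, at 21.0, 24.5 and 35.6 and 9.12, 7.76 and 7.57 CPM. Cd9, a tetraspanin, was at 244, 239 and 188 CPM in BaPs and 505, 595 and 474 CPM in the spleen. Transcripts of Kit, the stem cell factor receptor whose protein was absent from the gate, were present at 11.5, 7.07 and 31.8 CPM in BaPs and 0.960, 0.660 and 0.797 CPM in the spleen. Cd200r3 was at 542, 584 and 294 CPM and 812, 856 and 766 CPM, lower in BaP replicate 3 than in any other library. Itga2, the gene of CD49b, was at 32.5, 42.0 and 63.1 CPM in BaPs and 125, 171 and 124 CPM in the spleen. Where lists below hold such genes, the count without them is given beside the list's count, an alternative added after the values were seen.

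Among the genes with the largest differences that were higher in BaPs, those of the primary granule were the most frequent kind. The genes named here had the largest differences among those called with the same sign with and without BaP replicate 3, with groups that did not overlap, a mean of at least 10 CPM on the higher side and no place in the lists of other cell types. These criteria, the one on the lists included, were met by 2712 genes higher in BaPs and 2267 lower. Mpo, myeloperoxidase, was at 1792, 1402 and 562 CPM against 12.5, 12.5 and 16.7 CPM, a log2 fold change of 6.48 ± 0.47 (SE, adjusted p = 1.58e-07), and 6.84 without BaP replicate 3. Elane, neutrophil elastase, had 188 counts in the BaP libraries and 2 in the spleen, a ratio of 99.4 with a 95% counting interval of 27.1 to 827. Prtn3, proteinase 3, was at 46.6, 49.3 and 36.5 against 1.12, 0.825 and 0.797 CPM (log2 fold change 5.56 ± 0.34, adjusted p = 4.09e-08, and 5.69 without BaP replicate 3). Ctsg, cathepsin G, was at 2489, 2135 and 767 against 34.6, 47.0 and 39.6 CPM (5.47 ± 0.40 and 5.85). Ms4a3, a membrane protein of granulocyte progenitors, was at 449, 405 and 157 against 6.40, 6.44 and 5.18 CPM (5.81 ± 0.44 and 6.17). Thus 5 of the 10 genes with the largest differences belong to the primary granule list, which also holds membrane proteins of progenitors such as Ms4a3.

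The other 5 were of several kinds. Pdia5, a protein disulfide isomerase of the endoplasmic reticulum, was at 23.4, 13 and 7.65 CPM against 0.320, 0.165 and 0.133 CPM (log2 fold change 6.0 ± 0.65, adjusted p = 4.75e-06, and 6.34 without BaP replicate 3). Cep55, which acts in the last step of cell division, was at 14.3, 10.8 and 9.59 CPM against 0.320, 0 and 0.266 CPM (log2 fold change 5.68 ± 0.44, adjusted p = 2.30e-07, and 5.81 without BaP replicate 3). Bub1, a kinase of the spindle checkpoint, was at 33.0, 27.6 and 16.9 CPM against 1.28, 0.330 and 0.133 CPM (5.46 ± 0.50 and 5.71). Sdsl, a serine dehydratase-like enzyme, was at 13.9, 14.9 and 12.2 against 0.480, 0.330 and 0 CPM (5.62 ± 0.51 and 5.70). Trbv2, a variable segment of the T cell receptor β chain, was at 22.0, 9.19 and 6.49 CPM in BaPs and 0.160, 0.660 and 0 CPM in the spleen (5.47 ± 0.75 and 5.82). It was highest in BaP replicate 1, where the constant region Trbc2 had no read and Trbc1 was at 0.478 CPM, and lowest of the BaP libraries in replicate 3, where the T cell list was highest. Whether it took up reads of similar segments cannot be checked, since no source used here gives the rule for shared reads.

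**Figure D2:**
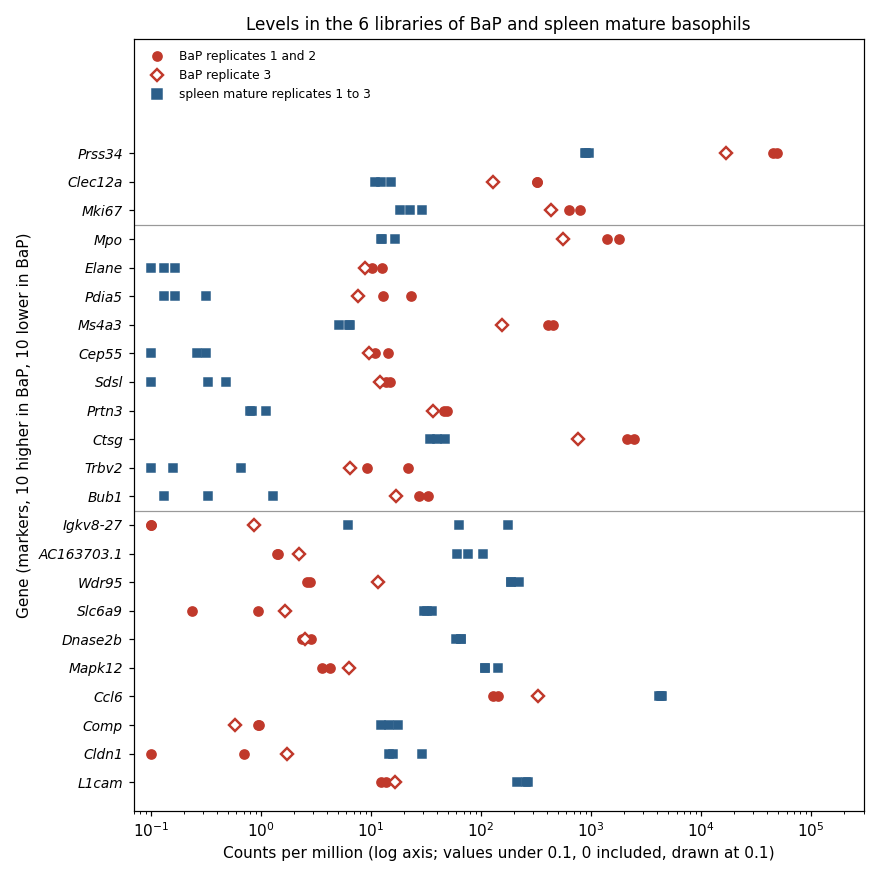
CPM (log axis) of the marker genes Prss34, Clec12a and Mki67 and of the 10 genes with the largest differences in each direction; each point is 1 library, circles and diamonds for BaPs and squares for the spleen. No gene has overlapping groups, which was a criterion for choosing the genes with the largest differences. The open diamonds of BaP replicate 3 lie on the spleen side of the other BaP points for most genes, such as Prss34 at 17009 CPM.

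Genes that were lower in BaPs had other roles. Ccl6, a chemokine of myeloid cells, was at 128, 142 and 332 CPM in BaPs against 4137, 4453 and 4309 CPM in the spleen (log2 fold change −4.41 ± 0.30, adjusted p = 8.63e-08, and −4.98 without BaP replicate 3). Slc6a9, a glycine transporter, was at 0.239, 0.943 and 1.65 CPM against 30.7, 35.6 and 32.5 CPM (log2 fold change −4.86 ± 0.31, adjusted p = 5.40e-08, and −5.73 without BaP replicate 3). Mapk12, the p38γ kinase, was at 3.58, 4.24 and 6.39 against 109, 108 and 144 CPM (−4.58 ± 0.20 and −4.92). L1cam, an adhesion molecule of the immunoglobulin family, was at 13.9, 12.3 and 16.6 against 213, 257 and 270.0 CPM (−4.09 ± 0.16 and −4.23). Cldn1, a claudin, was at 0, 0.707 and 1.74 CPM against 14.6, 15.8 and 29.1 CPM (−4.23 ± 0.56 and −5.70). Dnase2b, an acid DNase, was at 2.87, 2.36 and 2.52 CPM against 66.1, 59.9 and 66.3 CPM (−4.63 ± 0.18 and −4.59). Comp, a matrix protein, was at 0.956, 0.943 and 0.581 CPM against 12.5, 17.7 and 14.6 CPM (−4.24 ± 0.32 and −3.93). Wdr95 was at 2.63, 2.83 and 11.5 CPM against 189, 189 and 221 CPM (−4.93 ± 0.41 and −6.17). AC163703.1, a gene without a match in the annotation used for names, was at 1.43, 1.41 and 2.23 CPM against 76.8, 60.7 and 104 CPM (−5.45 ± 0.36 and −5.79). The last of the 10, Igkv8-27, is a variable segment of the immunoglobulin κ chain and belongs with the B cell genes described apart. It was at 0, 0 and 0.871 CPM in BaPs and at a very uneven 62.9, 176 and 6.24 CPM in the spleen.

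Nearly all genes of DNA replication and mitosis were higher in BaPs. Of 48 S phase genes 46 were called higher (95.8%) and none lower, with a median log2 fold change of 2.79, and without BaP replicate 3 the counts were again 46 and 0 with a median of 2.96. Of 50 genes of G2 and mitosis 48 were called higher and none lower, with a median of 3.50, and 49 without BaP replicate 3, with a median of 3.70. Uhrf1, which directs DNA methylation to newly made DNA, was at 53.5, 58.0 and 35.6 CPM in BaPs and 1.76, 1.49 and 1.06 CPM in the spleen (log2 fold change 5.08 ± 0.24, adjusted p = 6.50e-09, and 5.29 without BaP replicate 3). Rrm2, the small subunit of ribonucleotide reductase, was at 213, 162 and 80.9 CPM against 6.88, 3.63 and 4.12 CPM (log2 fold change 4.95 ± 0.36, adjusted p = 1.48e-07, and 5.28 without BaP replicate 3). Lig1, the DNA ligase of replication, was at 107, 89.1 and 59.9 CPM against 4.80, 2.48 and 2.39 CPM (4.72 ± 0.30 and 4.95). In these 3 genes every BaP library lay above every spleen library, as in 31.6% of all tested genes. Cks1b, a subunit of cyclin-dependent kinases, was at 135, 131 and 81.1 CPM against 2.72, 2.81 and 2.79 CPM (5.37 ± 0.24 and 5.59). Aurka, the Aurora A kinase, was at 15.3, 14.9 and 8.33 CPM against 0.480, 0.165 and 0.266 CPM (5.28 ± 0.49 and 5.54). Cdk1, the kinase that drives mitosis, was at 88.9, 72.4 and 49.3 CPM against 2.56, 2.81 and 1.46 CPM (4.95 ± 0.35 and 5.17). In S phase the exceptions were E2f8, an atypical repressor of the E2F family, and Rfc2, a clamp loader subunit, which were not called in either fit. In mitosis they were Pttg1, the securin, and Cks2, of which Cks2 was called without BaP replicate 3.

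Among 14 genes of G1 cyclins, their kinases and inhibitors, 8 were called higher and 3 lower, and without BaP replicate 3 they were 8 and 5. Cdk6 was at 409, 422 and 297 CPM against 61.3, 59.6 and 57.9 CPM (log2 fold change 2.66 ± 0.14, adjusted p = 1.32e-08, and 2.81 without BaP replicate 3). Cdk4 was at 172, 137 and 118 CPM against 22.4, 22.6 and 18.3 CPM (log2 fold change 2.75 ± 0.15, adjusted p = 1.65e-08, and 2.89 without BaP replicate 3). Cdkn2c, the p18 inhibitor of both kinases, was higher as well, at 25.3, 18.2 and 12.7 against 2.72, 1.82 and 1.59 CPM (3.17 ± 0.30 and 3.42). The 3 members lower in BaPs in both fits were Rbl2, the p130 pocket protein, with a log2 fold change of −0.90 (−1.0 without BaP replicate 3), and the antiproliferative factors Btg1 (−0.86 and −0.92) and Btg2 (−1.41 and −1.29).

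Promoters of these lists are shown because nearly all their members moved in 1 direction and because short motifs are known in promoters of genes of each phase. The sequence table (RefSeq, GRCm38.p6) covers 250 bases before and 50 bases after each start and held a promoter for 38 of the 48 S phase genes and 42 of the 50 genes of G2 and mitosis. Motifs were searched on both strands as exact letters. The cell cycle homology region was searched as TTTGAA and, as a second form, TTCGAA. The CCAAT box was searched by those letters. The E2F type was searched as TTGGCGC and, as a second form, TTCCCGC. Read on the other strand, the CCAAT box can overlap the first E2F form. The sequences are the 120 bases before the table's start of the genes with the largest log2 fold changes whose stretch holds the motifs of its list. Genes of 1 chromosome were left out before this choice. In the first 3, of the mitosis list, capitals mark the cell cycle homology region and CCAAT, and in the last 2, of the S phase list, they mark the E2F type. A match is a description of the letters and was not tested as a binding site. In the annotation used for names (GENCODE M21), Cks1b starts at position 89418383 of the minus strand. All 4 marked matches of Cks1b therefore lie inside the annotated gene.
Cks1b, chr3:89418292-89418411, minus strand: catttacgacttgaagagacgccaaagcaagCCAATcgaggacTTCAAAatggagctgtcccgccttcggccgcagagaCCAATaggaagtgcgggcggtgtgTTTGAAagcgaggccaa
Cdk1, chr10:69352913-69353032, minus strand: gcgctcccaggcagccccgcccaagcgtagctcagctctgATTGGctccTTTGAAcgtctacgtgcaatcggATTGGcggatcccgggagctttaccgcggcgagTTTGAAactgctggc
Ube2c, chr2:164769809-164769928, plus strand: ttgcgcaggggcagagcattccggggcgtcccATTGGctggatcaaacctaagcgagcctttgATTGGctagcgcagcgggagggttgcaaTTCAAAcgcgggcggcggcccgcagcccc
Uhrf1, chr17:56303217-56303336, plus strand: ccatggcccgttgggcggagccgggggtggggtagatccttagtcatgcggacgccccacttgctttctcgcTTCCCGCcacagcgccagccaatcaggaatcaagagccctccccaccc
Prim1, chr10:128015095-128015214, plus strand: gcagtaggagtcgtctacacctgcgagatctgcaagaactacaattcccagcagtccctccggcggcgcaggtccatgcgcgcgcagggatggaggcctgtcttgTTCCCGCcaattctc

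The cell cycle homology region was found in 30 of 42 promoters of the G2 and mitosis list (71.4%), in 7 of 38 of the S phase list (18.4%) and in 19.4% of all 27025 promoters of the table. It stood together with CCAAT in 26 of 42 (61.9%), 6 of 38 (15.8%) and 7.70%. The E2F type motif was found in 5 of 42 promoters of the mitosis list (11.9%), in 20 of 38 of the S phase list (52.6%) and in 6.93% of all promoters. Among the 9919 tested genes with a promoter in the table the share was 11.9%. CCAAT alone was common in both lists, at 71.4% and 57.9%, against 37.9% of all promoters. Ube2c, a ubiquitin-conjugating enzyme of the anaphase-promoting complex, was at 183, 133 and 80.2 CPM in BaPs and 5.92, 3.63 and 4.91 CPM in the spleen (log2 fold change 4.76 ± 0.33, adjusted p = 1.03e-07, and 5.03 without BaP replicate 3). Prim1, the catalytic subunit of primase, was at 51.8, 42.7 and 32.8 CPM against 2.72, 2.31 and 1.59 CPM (log2 fold change 4.26 ± 0.25, adjusted p = 2.73e-08, and 4.44 without BaP replicate 3).

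**Figure D3:**
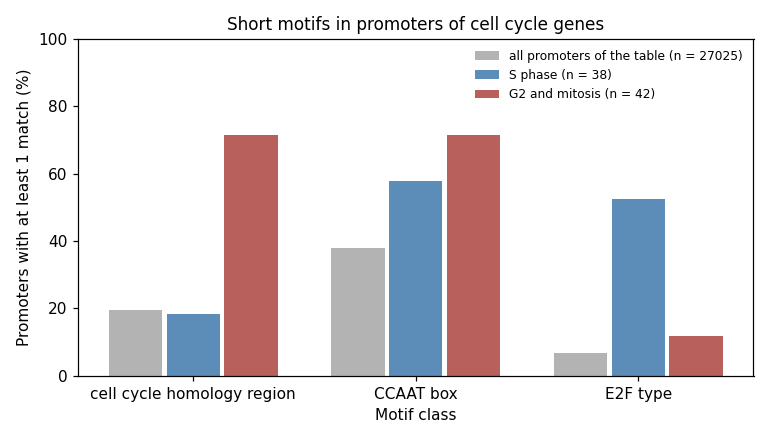
Share of promoters (%) with at least 1 match of each motif class in the S phase list (n = 38), the G2 and mitosis list (n = 42) and all promoters of the table (n = 27025). The cell cycle homology region reaches 71.4% in the mitosis list and the E2F type 52.6% in the S phase list, while all promoters are at 19.4% and 6.93%.

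Granule proteases of basophils were mostly higher in BaPs. Of 10 tested proteases and granule proteins 6 were called higher and 1 lower, with a median log2 fold change of 2.41 (7 and 2, and 2.49, without BaP replicate 3). Beside Prss34, Mcpt8 had a log2 fold change of 3.82 ± 0.27 (SE, adjusted p = 1.10e-07), and 4.12 without BaP replicate 3. Cpa3, a carboxypeptidase of basophils and mast cells, was at 2449, 2135 and 876 CPM against 382, 372 and 329 CPM (log2 fold change 2.33 ± 0.27, adjusted p = 8.88e-06, and 2.68 without BaP replicate 3). Gzmb, granzyme B, was at 396, 418 and 235 against 62.7, 118 and 69.2 CPM (2.07 ± 0.27 and 2.30). Gzmc was at 40.1, 32.5 and 15 CPM against 3.68, 3.96 and 3.05 CPM (3.0 ± 0.33 and 3.36). Granzyme genes are similar in sequence, and reads shared among them cannot be checked. Gzma was not called with all libraries. It was at 3.11, 1.18 and 342 CPM in BaPs, so that replicate 3 alone was high, and at 17.0, 30.5 and 16.6 CPM in the spleen. Srgn, the proteoglycan that packs proteases, did not pass the test. Ctsd, the lysosomal protease cathepsin D, was the only member called lower with all libraries, at 338, 357 and 365 against 1246, 1442 and 1622 CPM (−2.02 ± 0.12 and −2.04).

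Of 16 tested members of the primary granule list, not all of them granule proteins, 15 were called higher and none lower. Their median log2 fold change was 4.08 (15 and 0, and 3.83, without BaP replicate 3). The list holds Clec12a, a surface receptor of the gate, and without it 14 of 15 were called higher, with a median of 3.81 (14 and 3.59 without BaP replicate 3). Beside those above, Nkg7, a granule membrane protein, was at 428, 326 and 485 CPM against 37.9, 50.2 and 37.6 CPM (log2 fold change 3.30 ± 0.18, adjusted p = 1.48e-08, and 3.18 without BaP replicate 3). Prss57, a serine protease of azurophil granules, was at 40.1, 21.5 and 12.4 against 0.640, 0.165 and 1.33 CPM (log2 fold change 4.98 ± 0.57, adjusted p = 7.47e-06, and 5.32 without BaP replicate 3). Prg2, the major basic protein of eosinophil granules, was at 43.2, 15.1 and 108 against 1.92, 3.30 and 2.12 CPM (4.54 ± 0.72 and 3.59), highest in BaP replicate 3. Genes of later neutrophil granules were higher too, 14 of 18 with 2 lower, but their levels were uneven among the BaP libraries. S100a8 was at 14.6, 138 and 370.1 CPM in BaPs and 8.0, 7.10 and 7.44 CPM in the spleen (4.55 ± 0.93 and 3.35). Ltf, lactoferrin, was at 7.17, 49.3 and 126 CPM against 3.04, 3.80 and 4.12 CPM (4.08 ± 0.89 and 2.94). The list's sum was 298, 897 and 2338 CPM in BaPs, against 355 to 372 CPM in the spleen. Most of the spleen sum came from Cxcr2 and Padi4, which were lower in BaPs, so the sums do not rank the other members. The sums in pre-basophils were 582, 1142 and 2243 CPM, and the part of other granulocytes was not tested. With BaP replicate 3 left out, 10 members were called higher and 2 lower, with a median of 2.71. The members lower in BaPs in both fits, Cxcr2 and Padi4, were read in every library, at 196, 183 and 181 and 76.8, 87.3 and 97.1 CPM in the spleen.

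The machinery of protein folding in the endoplasmic reticulum (ER), through which granule proteins pass, was higher in BaPs. Of 24 tested genes 18 were called higher and none lower, with a median log2 fold change of 1.70, and without BaP replicate 3 they were 20 and 0, with a median of 1.97. Sdf2l1, a co-factor of ER chaperones, was at 397, 312 and 127 CPM against 7.52, 7.76 and 5.71 CPM (log2 fold change 5.31 ± 0.40, adjusted p = 1.81e-07, and 5.68 without BaP replicate 3). Calr, the chaperone calreticulin, was at 3419, 2574 and 1078 against 180.3, 186 and 175 CPM (log2 fold change 3.71 ± 0.34, adjusted p = 1.03e-06, and 4.07 without BaP replicate 3). Hyou1, a chaperone of the HSP70 type, was at 369, 356 and 144 CPM against 23.5, 16.5 and 29.3 CPM (3.64 ± 0.35 and 3.97). Xbp1, the transcription factor of the unfolded protein response, was at 229, 239.5 and 116 CPM against 65.8, 67.7 and 70.9 CPM (1.51 ± 0.22 and 1.79). The sensor genes Ern1 and Atf6 did not pass the test. Hspa5, the chaperone BiP, was at 6926, 4970 and 2429 CPM against 3855, 4064 and 4272 CPM and was called only without BaP replicate 3 (0.56).

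Genes of cholesterol synthesis, ribosome assembly and respiration were also mostly higher. Of 24 cholesterol genes 18 were called higher and 1 lower, with a median log2 fold change of 1.38 (19 and 1, and 1.55, without BaP replicate 3). Insig1, a sterol-regulated ER protein, was at 16.0, 10.6 and 14.6 CPM against 1.28, 0.825 and 1.06 CPM (log2 fold change 3.67 ± 0.34, adjusted p = 1.06e-06, and 3.63 without BaP replicate 3). Fdps, farnesyl diphosphate synthase, was at 36.1, 43.4 and 18.5 CPM against 3.52, 4.29 and 2.92 CPM (log2 fold change 3.17 ± 0.33, adjusted p = 3.48e-06, and 3.49 without BaP replicate 3). The member that was lower in BaPs was Srebf2, the transcription factor that drives these genes, at 60.2, 68.8 and 64.1 against 84.7, 89.8 and 90.3 CPM (−0.45 ± 0.10 and −0.44). Of 40 ribosome biogenesis genes 30 were called higher and none lower, with a median of 0.97 (28 higher and a median of 0.71 without BaP replicate 3). Nop10, a component of the RNA pseudouridylation complex, was at 40.1, 34.4 and 39.1 against 8.32, 6.60 and 7.57 CPM (2.33 ± 0.15 and 2.32). Of 75 oxidative phosphorylation subunits 60 were called higher and 3 lower, with a median of 0.75 (62 and 3, and 0.93, without BaP replicate 3). Ndufc2 of complex I was at 65.7, 49.0 and 46.5 against 13.9, 14.5 and 12 CPM (1.99 ± 0.17 and 2.10). Ndufa6 of the same complex was lower in BaPs, at 117, 131 and 109.5 against 213, 199 and 168 CPM (−0.70 ± 0.12 and −0.63).

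**Figure D4:**
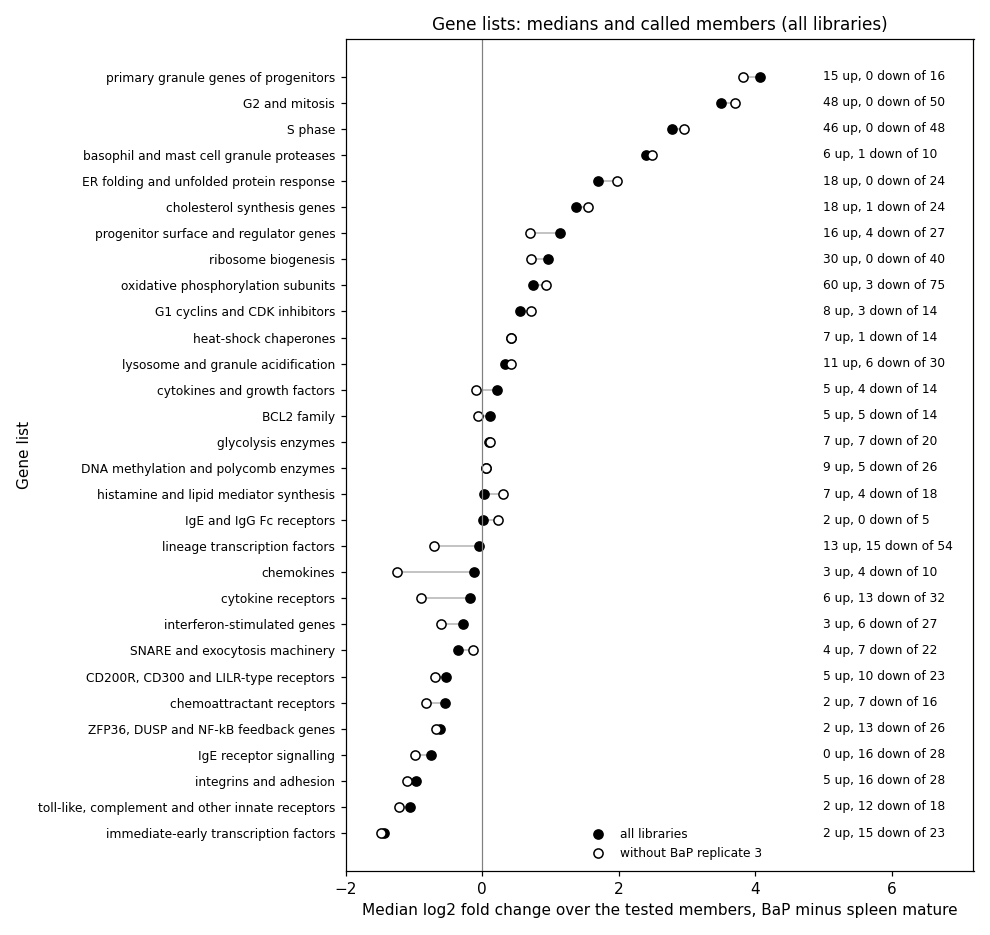
Median log2 fold change (BaP minus spleen mature) over the tested members of each gene list, with all libraries (filled) and without BaP replicate 3 (open); the text on the right gives how many members were called higher and lower with all libraries, genes of sorted proteins included. Cell cycle, primary granule, ER folding and cholesterol lists lie to the right of 0 and immediate-early, innate receptor, integrin and IgE signalling lists to the left in both fits, while the medians of chemokines, transcription factors and cytokine receptors were lower without that library (−1.26, −0.71 and −0.90).

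Regulators of early blood cells were more often higher than lower in BaPs. Of 27 tested progenitor genes 16 were called higher and 4 lower, with a median log2 fold change of 1.14, and without BaP replicate 3 they were 14 and 7, with a median of 0.70. The gates bear on this count through Cd34, whose protein was sorted for, and Kit, which was higher although the study gated basophils as cKit-. Without these genes 14 of 25 were called higher and 4 lower, with a median of 0.89 (12 and 7, and 0.62, without BaP replicate 3). Myb, a transcription factor of dividing progenitors, was at 175, 171 and 123 CPM against 8.16, 6.93 and 4.25 CPM (log2 fold change 4.61 ± 0.26, adjusted p = 2.56e-08, and 4.77 without BaP replicate 3). Hoxa9, a homeobox factor of early progenitors, had 129 counts in BaPs and 2 in the spleen, a ratio of 68.2 (95% counting interval 18.5 to 569), and of 53.0 without BaP replicate 3. Sox4 was at 81.7, 84.6 and 88.1 CPM against 5.92, 6.27 and 8.5 CPM (log2 fold change 3.61 ± 0.22, adjusted p = 4.29e-08, and 3.59 without BaP replicate 3). Angpt1, the ligand angiopoietin 1, was at 152, 157 and 96.8 CPM against 23.4, 34.3 and 27.9 CPM (2.24 ± 0.19 and 2.45). In these 4 genes every BaP library lay above every spleen library, as in 31.6% of all tested genes. Cd27 and Hlf were higher through BaP replicate 3. Cd27 was at 3.34, 3.06 and 48.6 CPM against 2.4, 2.97 and 1.06 CPM and Hlf at 2.87, 2.83 and 26.4 against 1.6, 3.63 and 1.33 CPM, and neither was called without it. The factors Tal1 (−0.85 and −0.76 without BaP replicate 3) and Lyl1 (−0.58 and −0.58) were lower in BaPs. So was Myc (−0.48 and −0.53), a growth regulator, at 34.4, 44.6 and 44.1 against 57.9, 48.0 and 66.5 CPM.

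Among 54 lineage transcription factors the directions were mixed, with 13 called higher (24.1%) and 15 lower (27.8%), against 29.8% and 24.6% of all tested genes. Their median log2 fold change of −0.04 was above 0 with library size as the only scaling (0.27) and with DEGES scaling (0.07). When BaP replicate 3 was left out, 12 were higher and 25 lower, with a median of −0.71. Mitf, a factor of mast cells, was at 4.30, 2.83 and 3.29 CPM against 0.640, 0.825 and 0.664 CPM (log2 fold change 2.25 ± 0.47, adjusted p = 0.00116, and 2.31 without BaP replicate 3). Klf1, the erythroid Krüppel-like factor, was at 3.58, 4.71 and 1.74 CPM in BaPs, lowest in replicate 3. It had 53 counts in BaPs and none in the spleen, which is at least 18.7-fold higher when the spleen group is placed at a floor of 3 counts (27.5-fold without BaP replicate 3). The lower 95% counting limit of the ratio was 14.7. Gata2, which basophils and mast cells need, was at 1443, 1459 and 757 CPM against 1909, 2023 and 1633 CPM (log2 fold change −0.61 ± 0.20, adjusted p = 0.0188, and −0.34 without BaP replicate 3). Gata1 was not called with all libraries (0.26) and was higher without BaP replicate 3 (0.50). Spi1, the myeloid factor PU.1, was lower, at 150.0, 165 and 96.2 against 301, 305 and 294 CPM (−1.14 ± 0.17 and −0.92). Stat5b, a mediator of IL-3 signals, was at 42.0, 50.2 and 51.5 CPM against 98.6, 104 and 127 CPM (−1.20 ± 0.13 and −1.24). Stat6, the mediator of IL-4 signals, was at 40.8, 43.4 and 49.8 CPM against 124, 107 and 113 CPM (−1.35 ± 0.15 and −1.43). Id1, an inhibitor of helix-loop-helix factors, was at 86.2, 75.4 and 46.1 against 348, 249 and 338 CPM (−2.18 ± 0.20 and −1.94). Nfil3 was at 39.9, 36.8 and 46.4 CPM against 119, 138 and 178 CPM (−1.82 ± 0.23 and −1.91). Irf8 was at 1.91, 1.18 and 64.2 CPM against 14.6, 12.2 and 7.04 CPM, and was lower in BaPs only without replicate 3 (−2.83).

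Receptor chains for IgE and the signalling genes behind them went in different directions. Of 5 tested Fc receptor genes 2 were called higher and none lower, in both fits. Fcer1a had a log2 fold change of 1.05 ± 0.25 (SE, adjusted p = 0.00320), and 1.38 without BaP replicate 3. Ms4a2, the β chain that amplifies FcεRI signals, was at 954, 950.3 and 413 CPM against 310.5, 329.8 and 297 CPM (log2 fold change 1.30 ± 0.23, adjusted p = 3.16e-04, and 1.62 without BaP replicate 3). Fcer1g, the signalling γ chain, did not pass the test, nor did the IgG receptor genes Fcgr2b and Fcgr3. Of 28 genes of IgE receptor signalling none was called higher and 16 were called lower (57.1%), with a median of −0.75, and without BaP replicate 3 they were 0 and 20, with a median of −0.99. Syk, the kinase recruited by FcεRI, was at 70.2, 71.4 and 95 CPM against 178, 168 and 200 CPM (−1.20 ± 0.14 and −1.35). Btk, a kinase downstream of it, was at 52.6, 48.6 and 42.4 CPM against 108, 107 and 114 CPM (−1.20 ± 0.11 and −1.11). Lat2, an adaptor, was at 213, 273 and 168 CPM against 580.1, 722 and 685 CPM (−1.60 ± 0.16 and −1.44). Pik3cd, the δ subunit of PI3-kinase, was at 36.5, 58.7 and 109.7 against 194, 243 and 239 CPM (−1.70 ± 0.28 and −2.23). In each of these 4 genes every BaP library lay below every spleen library, as in 28.3% of all tested genes. The adaptor Lat, the phospholipase Plcg2 and the kinase Fyn did not pass the test with all libraries.

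Of 23 paired and C-type lectin receptors 5 were called higher and 10 lower, and 5 and 12 without BaP replicate 3. Without Cd200r3 and Clec12a, whose proteins were sorted on, they were 4 and 9 of 21 (4 and 11 without BaP replicate 3). Clec4e, the receptor Mincle, was at 102, 85.3 and 42.2 CPM against 10.2, 10.7 and 13.1 CPM (log2 fold change 2.73 ± 0.32, adjusted p = 1.02e-05, and 3.04 without BaP replicate 3). Pirb, an inhibitory receptor for MHC class I, was at 2.87, 7.78 and 13 CPM against 52.0, 54.3 and 61.6 CPM (log2 fold change −2.72 ± 0.33, adjusted p = 1.38e-05, and −3.38 without BaP replicate 3). Lilrb4a was at 493, 450.3 and 405 CPM against 1835, 2233 and 1955 CPM (−2.16 ± 0.13 and −2.08), and its near copy Lilr4b at 983, 911 and 864 against 4148, 4947 and 4326 CPM (−2.28 ± 0.13 and −2.23). How reads were split between the pair is uncertain. Siglecf was at 12.9, 19.3 and 16.0 against 62.3, 55.8 and 60.2 CPM (−1.88 ± 0.15 and −1.87).

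Cytokine receptor genes were more often lower than higher in BaPs, 13 against 6 of 32, with a median log2 fold change of −0.18 that was 0.13 with library size as the only scaling. In the fit without BaP replicate 3, 18 were lower and 5 higher, with a median of −0.90. Il3ra, the specific chain of the receptor for IL-3, did not pass the test, at 209, 203 and 104 CPM against 156, 204 and 233 CPM (−0.20). Both β chains it pairs with were lower. Csf2rb, the chain shared with the receptors for GM-CSF and IL-5, was at 408, 381 and 249 CPM against 1409, 1454 and 1466 CPM (log2 fold change −2.06 ± 0.15, adjusted p = 1.81e-07, and −1.86 without BaP replicate 3). Its near copy Csf2rb2, the chain particular to the IL-3 receptor of the mouse, was at 129, 127 and 83.9 against 512, 517 and 523 CPM (log2 fold change −2.20 ± 0.15, adjusted p = 6.97e-08, and −2.01 without BaP replicate 3), with the same doubt on shared reads. Receptors for IL-18 and IL-33 were lower as well. Il18r1 was at 61.9, 60.8 and 121 CPM against 403, 484 and 433 CPM (−2.42 ± 0.22 and −2.83). Il18rap was at 324, 335 and 311 against 962, 959 and 996 CPM (−1.59 ± 0.093 and −1.55). Il1rl1, the IL-33 receptor ST2, was at 91.5, 77.1 and 50.5 CPM against 115, 115 and 129 CPM (−0.72 ± 0.18 and −0.49). Il10ra was at 3.11, 3.30 and 17.6 CPM against 46.6, 54.3 and 77.0 CPM (−2.70 ± 0.45 and −4.19). Higher in both fits were Csf2ra (1.16 ± 0.21 and 1.29), the GM-CSF receptor α chain, and Csf1r (2.48 ± 0.42 and 2.21). Ifngr1 was at 36.8, 27.3 and 193 CPM and was called higher only with BaP replicate 3. Crlf2, the TSLP receptor chain, was at 252, 196 and 119 against 146, 162 and 149.5 CPM and was called only without BaP replicate 3 (0.57).

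Cytokine genes were divided. Il4, the type 2 cytokine for which basophils are best known, was lower in BaPs, at 72.4, 45.3 and 29.7 CPM against 118, 121 and 114 CPM (log2 fold change −1.28 ± 0.26, adjusted p = 8.08e-04, and −0.99 without BaP replicate 3). Il13 did not pass the test (−0.68). Il6 was higher, at 1781, 1454 and 816 against 528, 697 and 539 CPM (log2 fold change 1.20 ± 0.26, adjusted p = 0.00172, and 1.47 without BaP replicate 3). So was Tnf, at 193, 203 and 94.9 against 31.4, 45.0 and 32.5 CPM (2.17 ± 0.24 and 2.46). Spp1, osteopontin, was at 43.0, 28.5 and 15 CPM against 2.72, 1.32 and 3.98 CPM (3.35 ± 0.42 and 3.70). Il1b was at 51.6, 27.3 and 27.6 CPM against 8.0, 5.12 and 11.6 CPM (2.08 ± 0.45 and 2.25). Csf1 was lower, at 1090, 895 and 724 against 3782, 3929 and 4864 CPM (−2.22 ± 0.21 and −2.07), as were Osm, oncostatin M (−2.32 ± 0.19 and −2.20), and Lif (−3.25 ± 0.59 and −3.26). Over all 14 tested cytokine genes 5 were called higher (35.7%) and 4 lower (28.6%), with the same counts without BaP replicate 3. Of all tested genes 29.8% were called higher and 24.6% lower.

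Chemokine genes were divided as well. Ccl3 and Ccl4 encode the inflammatory proteins MIP-1α and MIP-1β. Ccl3 was at 2738, 3088 and 2165 CPM against 11384, 13265 and 12144 CPM (log2 fold change −2.20 ± 0.15, adjusted p = 8.92e-08, and −2.06 without BaP replicate 3). Ccl4 was at 2617, 3107 and 2677 against 15262, 18303 and 17159 CPM (log2 fold change −2.59 ± 0.14, adjusted p = 1.30e-08, and −2.55 without BaP replicate 3). Ccl9 was at 446, 558 and 432 CPM against 3471, 3702 and 3142 CPM (−2.85 ± 0.13 and −2.77). Ccl17, a ligand of CCR4, was higher, at 3.58, 3.06 and 1.36 against 0.480, 1.65 and 0.664 CPM (1.42 ± 0.52 and 1.85). Cxcl3 was also higher (1.29 ± 0.34 and 1.63), and Cxcl2 did not pass the test. Of 10 tested chemokines 3 were called higher (30%) and 4 lower (40%), against 29.8% and 24.6% of all tested genes. Their median log2 fold change of −0.12 was above 0 with library size alone (0.17) and with DEGES scaling (0.02). Xcl1 and Ccl5, chemokines of lymphocytes, turned on BaP replicate 3. Xcl1 was at 4.54, 1.89 and 151 CPM against 3.68, 4.62 and 4.91 CPM, and Ccl5 at 3.82, 4.95 and 969 against 43.0, 49.3 and 36.1 CPM. Without that library 2 chemokines were called higher and 5 lower, with a median of −1.26.

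Enzymes of histamine and lipid mediators were split, with 7 of 18 called higher (38.9%) and 4 lower (22.2%), against 29.8% and 24.6% of all tested genes. Without BaP replicate 3 they were 7 and 6 of 17. Hdc, which makes histamine, was at 1018, 647 and 495 CPM in BaPs and 1693, 2105 and 2380 CPM in the spleen (log2 fold change −1.52 ± 0.28, adjusted p = 5.01e-04, and −1.29 without BaP replicate 3). Slc22a3, a transporter of histamine and other amines, was higher, at 92.4, 89.1 and 38.5 against 5.92, 9.90 and 6.64 CPM (log2 fold change 3.28 ± 0.30, adjusted p = 1.20e-06, and 3.62 without BaP replicate 3). Slc18a2, which loads histamine into granules, did not pass the test (−0.38). Alox5, the first enzyme of leukotriene synthesis, was higher (0.68 ± 0.23 and 1.0), and its partner Alox5ap lower (−0.59 ± 0.19 and −0.33). Ptgs2, the inducible cyclooxygenase, was at 250.1, 206 and 150.0 against 586, 647 and 649 CPM (−1.64 ± 0.21 and −1.45). Alox15 was at 134, 152 and 108 CPM against 253, 313 and 299.6 CPM (−1.14 ± 0.13 and −1.0).

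Innate receptors were mostly lower in BaPs. Of 18 tested members 2 were called higher and 12 lower, with a median log2 fold change of −1.07 (1 and 14, and −1.22, without BaP replicate 3), and the other 9 of the list, among them 6 Toll-like receptors and Cd14, did not pass the filter. C3ar1, the receptor for C3a, was at 21.0, 15.8 and 22.4 CPM against 181, 199.7 and 183 CPM (log2 fold change −3.24 ± 0.14, adjusted p = 4.01e-09, and −3.34 without BaP replicate 3). C5ar1, a receptor for C5a, was at 11.5, 6.37 and 12.5 CPM against 55.4, 88.1 and 42.0 CPM (log2 fold change −2.57 ± 0.28, adjusted p = 5.51e-06, and −2.78 without BaP replicate 3). Hrh4, the histamine H4 receptor, was at 3.82, 6.60 and 4.45 against 20.2, 16.5 and 20.5 CPM (−1.96 ± 0.22 and −1.85). Trem1 was higher, at 5.73, 5.89 and 11.6 against 1.12, 0.330 and 1.06 CPM (3.20 ± 0.66 and 2.74). Fpr2, a formyl peptide receptor, was at 0, 2.59 and 3.97 against 0.480, 0.165 and 0 CPM and was called higher only with BaP replicate 3 (3.44 and 2.55). Of 16 chemoattractant receptors 2 were called higher and 7 lower, with a median of −0.54 (4 and 10, and −0.83, without BaP replicate 3). Cxcr4, the receptor for CXCL12, the chemokine of bone marrow stroma, was at 168, 118 and 113 CPM in BaPs and 52.6, 84.2 and 93.6 CPM in the spleen (0.79 ± 0.26 and 0.91). Ltb4r1, a leukotriene B4 receptor, was also higher, at 70.7, 83.5 and 42.2 against 21.0, 28.1 and 28.3 CPM (1.33 ± 0.22 and 1.59). Cxcr2 was lower, at 26, 33.2 and 34.9 CPM in BaPs (−2.56 ± 0.16 and −2.64). Ccr2, a receptor for CCL2, was lower too, at 16.7, 21.9 and 101.1 against 202, 191 and 171 CPM (−1.96 ± 0.46 and −3.27), and so was Gpr183, an oxysterol receptor, at 51.6, 44.1 and 54.7 against 179.9, 193 and 243 CPM (−2.03 ± 0.16 and −2.09). S1pr4, a receptor for sphingosine 1-phosphate, was at 34.6, 29.7 and 29.9 against 57.6, 70.1 and 73.6 CPM (−1.10 ± 0.15 and −1.05).

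Adhesion genes followed the same direction, as 16 of 28 were called lower and 5 higher, with a median log2 fold change of −0.98 (16 and 5, and −1.10, without BaP replicate 3). Without Itga2 and Cd9, whose proteins were sorted on, 14 of 26 were called lower and 5 higher, in both fits. Itgb3, the β3 integrin, was at 11.7, 18.4 and 72.3 CPM against 182, 199.8 and 186 CPM (log2 fold change −2.40 ± 0.44, adjusted p = 4.03e-04, and −3.64 without BaP replicate 3). Cd44, the hyaluronan receptor, was at 29.4, 32.8 and 110.5 CPM against 188, 196 and 196 CPM (log2 fold change −1.71 ± 0.35, adjusted p = 0.00103, and −2.62 without BaP replicate 3). Itgb7 was at 161, 184 and 161 against 466, 530.0 and 592 CPM (−1.65 ± 0.11 and −1.60). Itgam, the αM chain of Mac-1, was at 49.2, 53.5 and 73.1 CPM against 179, 175 and 164 CPM (−1.55 ± 0.14 and −1.74). BaP replicate 3 was the BaP library nearest to the spleen for Itgb3, Cd44 and Itgam. Cd81, a tetraspanin, was higher, at 47.3, 54.5 and 38.2 against 11.4, 11.9 and 6.91 CPM (2.21 ± 0.20 and 2.36). Itga4 was called higher (1.29) through BaP replicate 3, at 75.0, 89.8 and 321 CPM, and was not called without it (0.31). Pecam1 and Itgb2, the β2 integrin, did not pass the test.

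Immediate-early genes, which are induced within minutes of a stimulus, were lower in BaPs. Of 23 such transcription factor genes 15 were called lower and 2 higher, with a median log2 fold change of −1.44 (17 and 1, and −1.48, without BaP replicate 3). Jun was at 3799, 4968 and 3498 CPM in BaPs and 22654, 26600 and 29532 CPM in the spleen (log2 fold change −2.68 ± 0.17, adjusted p = 5.53e-08, and −2.57 without BaP replicate 3). Fosb was at 8702, 7451 and 5004 CPM against 24526, 17001 and 26562 CPM (log2 fold change −1.69 ± 0.23, adjusted p = 3.86e-05, and −1.48 without BaP replicate 3). Egr1 was at 4100, 3867 and 2401 CPM against 15923, 19835 and 15437 CPM (−2.30 ± 0.19 and −2.09). In the spleen libraries Jun took 2.23% to 2.73% of all counts, against 0.411% to 0.558% in BaPs. Zfp36, which encodes the mRNA decay factor tristetraprolin, was at 1730, 2251 and 2127 CPM against 16214, 18178 and 17528 CPM (−3.09 ± 0.15 and −3.11). In mature basophils of the bone marrow the means were 16468 CPM for Jun and 15362 CPM for Zfp36, and the list's median was −0.047 between them and the spleen, against −1.44 between BaPs and the spleen. Klf4 was higher in BaPs, at 62.8, 24 and 66.9 against 15, 9.90 and 13.9 CPM (1.99 ± 0.43 and 1.75). Of 26 genes of the ZFP36, DUSP and NF-kB feedback list 13 were called lower and 2 higher, and 15 and 4 without BaP replicate 3. Nfkbid was at 119, 88.9 and 122 against 505, 573 and 595 CPM (−2.34 ± 0.20 and −2.41). Gadd45a, a stress-induced gene, was higher, at 515, 387 and 237 against 137, 90.3 and 132 CPM (1.66 ± 0.36 and 1.92).

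Of 14 heat-shock chaperones 7 were called higher and 1 lower, with a median log2 fold change of 0.42 (7 and 2, and 0.43, without BaP replicate 3). Hspe1 and Hspd1 of the mitochondrial chaperonin had log2 fold changes of 1.63 and 1.21 (1.42 and 1.07 without BaP replicate 3). Dnajb1 was lower, at 589.8, 477 and 361 against 2302, 2119 and 2897 CPM (log2 fold change −2.36 ± 0.19, adjusted p = 4.05e-07, and −2.18 without BaP replicate 3). In the BCL2 family 5 of 14 were called higher and 5 lower, and 6 and 6 without BaP replicate 3. Bcl2, which keeps cells alive, was higher, at 77.6, 95.7 and 150.1 CPM against 18.2, 16.5 and 21.2 CPM (log2 fold change 2.53 ± 0.23, adjusted p = 9.47e-07, and 2.22 without BaP replicate 3). Mcl1, also a survival factor, was lower, at 314, 239.8 and 293 against 679, 701 and 1172 CPM (−1.59 ± 0.43 and −1.61). Bik (2.90 ± 0.70 and 3.38) was higher and Bbc3, the p53 target PUMA (−1.50 ± 0.23 and −1.44), lower, both of which promote cell death.

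B cells are abundant in the spleen, and B cell genes are therefore described apart. Of 34 tested genes 3 were called higher and 16 lower, with a median log2 fold change of −1.59. Without BaP replicate 3 they were 3 and 28, with a median of −4.33, or −3.84 when the 9 genes with no read in BaP replicates 1 and 2 were placed at their bound. Cd79a, a chain of the B cell receptor, was at 0.478, 0.471 and 11.3 CPM in BaPs and 41.8, 26.2 and 18.2 CPM in the spleen (log2 fold change −2.54 ± 0.68, adjusted p = 0.00598, and −5.83 without BaP replicate 3). Ms4a1, the gene of CD20, was at 1.67, 2.36 and 10.4 against 31.7, 11.9 and 15.5 CPM (log2 fold change −1.87 ± 0.55, adjusted p = 0.0105, and −3.26 without BaP replicate 3). Igkc, the immunoglobulin κ constant region, was at 0, 0.471 and 122 CPM against 125, 212 and 76.1 CPM. Ighm, the μ chain, was at 3.58, 4.01 and 127 CPM against 184, 218 and 99.1 CPM. Neither was called with all libraries. In each of these 4 genes BaP replicate 3 had the highest level of the BaP libraries, and replicates 1 and 2 lay below every spleen library. The share of all tested genes with replicates 1 and 2 in that position was not counted. Not every member was so placed, as Cd79b was at 28.2 and 27.8 CPM in these replicates and 36.2, 25.1 and 26.4 CPM in the spleen. The summed B cell level was 186, 160 and 572 CPM in BaPs and 525 to 810 CPM in the spleen, and 11 of 37 genes had no read in BaP replicates 1 and 2. The members higher in BaPs, Cd55 (1.06 ± 0.19 and 1.22), Bcl11a (0.89 ± 0.21 and 0.79) and Cd72 (0.41 ± 0.13 and 0.47), are also expressed outside the B lineage. The part of B cells in the results on other genes was not tested.

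MHC class II genes overlap with those of B cells and other antigen-presenting cells and were lower for 6 of 11 and higher for 2 (6 and 3 of 10 without BaP replicate 3). Cd74, the invariant chain, was at 17.0, 8.49 and 45.5 CPM against 313, 174 and 192 CPM (log2 fold change −3.18 ± 0.56, adjusted p = 2.84e-04, and −4.14 without BaP replicate 3). H2-Aa was at 11.2, 4.48 and 14.3 CPM against 77.6, 36.8 and 42.9 CPM (log2 fold change −2.33 ± 0.39, adjusted p = 1.87e-04, and −2.73 without BaP replicate 3). H2-DMb1, a subunit of the peptide loader, was higher, at 24.6, 23.8 and 11.6 against 8.64, 5.45 and 7.97 CPM (1.41 ± 0.27 and 1.72), while H2-DMb2, similar in sequence, was lower (−1.78 ± 0.24 and −1.98).

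The groups between the ends placed these differences along the series; their values share the spleen libraries as reference and are given as a description. Over the 4496 genes higher in BaPs the median log2 fold change of 1.22 fell into medians of 0.24 from BaP to pre-basophil, 0.69 from pre-basophil to BM mature and 0.26 from BM mature to spleen, so the largest of the 3 median steps was the middle one. Without BaP replicate 3 the steps over its 4712 higher genes were 0.31, 0.64 and 0.26. Over the 3717 lower genes the steps were −0.28, −0.48 and −0.25 (−0.40, −0.48 and −0.26 over 4353 genes without BaP replicate 3). Medians against the spleen were 2.79, 2.23 and 0.30 for S phase genes in BaPs, pre-basophils and BM mature cells, and 3.50, 3.71 and 1.07 for genes of mitosis. Without BaP replicate 3 the BaP medians were 2.96 and 3.70. The mean of Prss34 was 37020 CPM in BaPs, 45144 CPM in pre-basophils, 5065 CPM in mature cells of the BM and 921 CPM in the spleen, so BM mature cells lay between the CLEC12A-high groups and the spleen. Progenitor genes had medians of 1.14, 0.071 and −0.11, and of 0.70, 0.23 and −0.0095 over the 26 members tested without BaP replicate 3, and the mean of Myb was 78.9 CPM in pre-basophils and 16.4 CPM in mature cells of the BM. Ribosome biogenesis genes were at 0.97, 0.29 and −0.23. Without BaP replicate 3 they were at 0.71, 0.30 and −0.23, so that which of the first steps was larger turned on that library. Medians of integrins and adhesion genes were −0.98, −0.47 and −0.018, and those of IgE receptor signalling −0.75, −0.56 and −0.16. Without BaP replicate 3 their BaP medians were −1.10 and −0.99. List medians here include genes of sorted proteins, such as Cd34 and Kit among progenitor genes, and the steps were not computed without them.

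**Figure D5:**
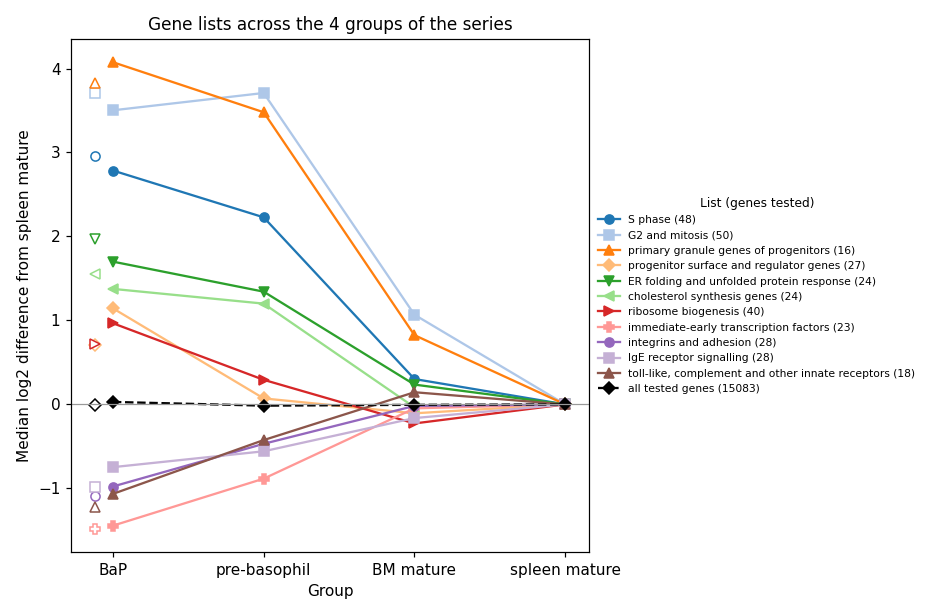
Median log2 difference from spleen mature basophils of 11 gene lists and of all tested genes in BaPs, pre-basophils and BM mature basophils (spleen mature is 0 by construction); each point is the median over the tested genes of the list, and open points left of BaP give the BaP median without replicate 3. Cell cycle and primary granule lists drop mainly between pre-basophils and BM mature cells. Progenitor genes drop mainly between BaPs and pre-basophils (1.14 to 0.071, and 0.70 to 0.23 without BaP replicate 3). Ribosome biogenesis genes drop by steps whose order depends on BaP replicate 3 (0.97 with it and 0.71 without), and all tested genes stay near 0. The medians include genes of sorted proteins, such as Clec12a in the primary granule list and Cd34 and Kit in the progenitor list.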

How the data were processed

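RNA with poly(A) tails from sorted basophils was captured on oligo-dT beads, amplified by the TAS-Seq method, made into libraries with the NEBNext Ultra II FS kit and sequenced on an Illumina NovaSeq instrument. Raw read counts per gene were deposited by the authors, who trimmed reads with Cutadapt 3.4, mapped them with Bowtie2 2.4.2 to reference RNA and counted them per gene. The published methods name GRCm38 and the submitters' processing notes GRCm39. Gene coordinates here are those of the annotation used for names (GENCODE M21, GRCm38), in which 14635 of 15083 tested symbols (97.0%) were found. Promoter coordinates are those of the RefSeq sequence table, whose starts can differ, so that part of a stretch can lie inside the annotated gene. The rules for shared reads and for strand are not given in the sources consulted. Each library was a pool of mice, and p-values measure the spread between pools only. Total counts were 3773638 to 8151030 in the 6 libraries, and intervals and floors cover counting error only.

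Counts of all 12 libraries were fitted together, with 1 coefficient for each of the 4 groups, TMM scaling and the filterByExpr filter, in edgeR 4.0.16 (R 4.3.3). BaP minus spleen was tested with the quasi-likelihood F test, adjusted by the Benjamini-Hochberg method over all tested genes. The SE is the log2 fold change divided by the square root of F. The scripts were tested on simulated data. Alternatives were other scalings (library size alone, upper quartile, DESeq2 size factors and a rebuilt form of DEGES, the scheme of the TCC package named by the study), other filters, DESeq2 1.42.0, limma-voom 3.58.1, the 6 libraries alone, the replicate number as a block, a test against 2-fold and each library left out. No column came from another series.

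Named were the genes of the sort and stage markers, the 10 genes with the largest differences in each direction that met the criteria given with them, up to 3 called members of each of 40 gene lists in each direction, other list members for their role and the 5 genes with the largest share of counts in each group. Some genes that the rule takes in are not reported here. Members, lists and rules were chosen with earlier results of these data known. Lists are described by counts and medians, without a set test.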

Additional observations from a re-analysis of the deposited data

How the results depend on the processing

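The count of 8213 called genes was 7047 to 9065 when 1 library was left out, and 7211 to 9017 under other scalings, filters and tests, DESeq2 and limma-voom included. With the 6 libraries alone it was 7122. It was 2176, 1465 of them higher in BaPs, when a difference had to exceed 2-fold in the test itself (edgeR's glmTreat). The count of 4743 genes with a difference of at least 2-fold was 4309 to 5564 when 1 library was left out. In a fit of BaP replicates 1 and 2 and the spleen libraries alone, an alternative chosen after seeing the data, 9041 genes were called. With the replicate number as a replicate block 8558 genes were called. Same-numbered BaP and spleen libraries deviated together only weakly, with correlations of 0.0386, 0.00037 and 0.00672. These values cannot tell whether libraries of the same number shared a preparation. Same-numbered libraries of the 3 bone marrow groups, which share the fit, correlated at 0.125 to 0.262, and no test between those groups is reported. The share of called genes that were higher in BaPs was 54.7% with TMM, 73.7% with library size alone and 62.1% with the rebuilt DEGES scaling.

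Of 242 called genes named here or by the rule, 201 kept their call and direction under all alternatives except the 2-fold test. Of 4558 pairs of a gene named in either way and an alternative 247 lost the call, 32 gained it and 28 changed sign, and the cause was not tested. Sign changes came mostly with the loss of BaP replicate 3. In that fit, and then in the fit of the remaining BaP and spleen libraries alone, the log2 fold changes were −3.27 and −3.25 for Ccl5, −3.29 and −3.28 for Gzma, −0.45 and −0.43 for Xcl1, −4.39 and −4.41 for Tcf7, −1.80 and −1.79 for Klrd1, −2.62 and −2.61 for Eomes, −4.20 and −4.20 for Ncr1, −2.83 and −2.82 for Irf8, 0.15 and 0.16 for H3f3b, and 0.073 and 0.089 for Il3ra. In the first of these fits they were −2.53 for Cd3e and −1.03 for Klra8. Over the 6 fits that each left out 1 library, the highest values were 3.52 for Ccl5, 3.05 for Gzma, 4.17 for Xcl1, 3.49 for Tcf7, 3.97 for Klrd1, 3.77 for Eomes, 3.34 for Ncr1, 1.62 for Irf8, 4.41 for Cd3e, 3.67 for Klra8 and 0.56 for Hspa5, and the lowest were −0.22 for H3f3b and −0.37 for Il3ra. With library size alone the signs changed for H3f3b (0.20), Uqcrh (0.011) and Il3ra (0.063), with DEGES scaling for H3f3b (0.073), with limma-voom for Irf8 (−0.085), and without BaP replicate 1 for Hspa5 (−0.13). Depth limits low genes most, and genes with fewer than 3 counts in a group have wide counting intervals.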

Other observations

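Gene groups not described so far were divided or changed little between basophil progenitors (BaPs) and spleen mature basophils. Of all tested genes 29.8% were called higher in BaPs and 24.6% lower. Levels are counts per 1000000 (CPM) in the order of replicates 1, 2 and 3, and values in parentheses are the log2 fold change with its SE and then the log2 fold change without BaP replicate 3. Of 20 glycolysis genes 7 were called higher in BaPs and 7 lower, with a median log2 fold change of 0.091 (7 and 7 of 19, and 0.11, without BaP replicate 3). Gapdh, a glycolytic dehydrogenase, was higher, at 370.3, 346 and 201 CPM against 110.1, 117 and 109 CPM (1.44 ± 0.18 and 1.68). The glucose transporters Slc2a1 (−1.83 ± 0.19 and −2.09) and Slc2a3 (−1.64 ± 0.20 and −1.58) and the hexokinase Hk3 (−1.22 ± 0.15 and −1.07) were lower. Of 30 genes of lysosomes and granule acidification 11 were called higher and 6 lower, with a median of 0.33 (15 and 6, and 0.42, without BaP replicate 3). Npc1, a lysosomal cholesterol transporter, was lower, at 17.2, 15.6 and 25.9 CPM against 41.9, 44.2 and 56.6 CPM (−1.25 ± 0.18 and −1.53). Of 22 genes of SNARE proteins and exocytosis 4 were called higher and 7 lower, with a median of −0.35 (6 and 10, and −0.13, without BaP replicate 3). Vamp7, a vesicle SNARE, was higher, at 32.5, 25.0 and 20.8 CPM against 6.56, 4.95 and 5.58 CPM (2.18 ± 0.20 and 2.34). Unc13d, the priming factor Munc13-4 of granule release, was lower, at 154, 158 and 118 CPM against 258, 275 and 294 CPM (−0.95 ± 0.13 and −0.81).

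Of 26 genes of DNA methylation and polycomb complexes 9 were called higher and 5 lower, with a median of 0.058 (9 and 6 of 25, and 0.050, without BaP replicate 3). Dnmt1, the maintenance DNA methyltransferase, was at 142, 115 and 92.5 CPM against 14.7, 21.1 and 16.2 CPM (2.74 ± 0.20 and 2.90). Ezh1, a polycomb methyltransferase, was lower, at 14.1, 18.4 and 29.2 CPM against 42.4, 47.4 and 49.0 CPM (−1.13 ± 0.21 and −1.50). Of 27 interferon-stimulated genes 3 were called higher and 6 lower, with a median of −0.29 that was 0.028 with library size as the only scaling. In the fit without BaP replicate 3 they were 3 and 16, with a median of −0.60. Isg15, a ubiquitin-like protein induced by interferon, was at 6.21, 10.1 and 13.6 CPM against 25.6, 24.3 and 26.3 CPM (−1.30 ± 0.22 and −1.62). Of the sex-linked genes, Xist was at 1523, 1481 and 1315 CPM against 792, 769.9 and 749.6 CPM (0.90 ± 0.098 and 0.97), and the Y-linked Kdm5d (−0.91 ± 0.27 and −1.18) and Uty (−1.51 ± 0.29 and −2.01) were lower in BaPs. The Y-linked Ddx3y and Eif2s3y did not pass the filter on low counts. Each library was a pool of mice.

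Counts of called members of other cell type lists changed with BaP replicate 3. Of 17 T cell genes 4 were called higher in BaPs and none lower with all libraries, and 1 higher and 10 lower without replicate 3. The member higher in both fits was Thy1, at 221, 184 and 425 CPM against 25.8, 23.6 and 21.8 CPM (3.55 ± 0.26 and 3.11). Of 12 NK cell and innate lymphoid cell genes 6 were called higher and none lower with all libraries, and none higher and 10 lower without replicate 3. Of 16 erythroid and platelet genes 5 were called higher and 4 lower, and 4 and 11 without replicate 3. Car2, a carbonic anhydrase, was high in every BaP library, at 43.0, 42.4 and 83.9 CPM against 7.04, 6.60 and 6.24 CPM (3.11 ± 0.26 and 2.70), whereas the platelet gene Ppbp was at 0.239, 0.471 and 46.8 CPM against 79.4, 175 and 73.4 CPM (−2.59 ± 0.87 and −8.15). Of 14 monocyte, macrophage and dendritic cell genes 6 were called higher and 2 lower, and 5 and 4 without replicate 3. The complement gene C1qb had 127 counts in BaPs and 2 in the spleen, a ratio of 67.2 with a 95% counting interval of 18.2 to 561. Of the 127 counts 93 were from BaP replicate 3, and without it the ratio was 40 (10.3 to 344). Of 6 eosinophil genes 3 were called higher and 2 lower, with a median of 2.2, and without replicate 3 they were 2 and 3 of 5, with a median of −1.04. Epx, eosinophil peroxidase, had 87 counts in BaPs and 1 in the spleen, a ratio of 92.0 with an interval of 16.1 to 3676, at 1.91, 1.65 and 6.97 CPM. Of the 87 counts 72 were from BaP replicate 3, and without it the ratio was 35.3 (5.43 to 1486). Of 2 tested mast cell genes 1 was called higher and none lower (2 and 0 without replicate 3), and that gene was Kit, whose protein was sorted on. The part of such cells in the results on basophils was not tested.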
